A study of Homo sapiens with 13 samples.

Results

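In the endometrial cancer lines Ishikawa and Hec1A, 1935 FOXA1 sites of Hec1A lay beside, but not on, an Ishikawa site. They were chosen by peak positions alone, as the autosomal Hec1A peaks that share no base with any Ishikawa interval and whose nearest Ishikawa peak centre is more than 1 kb and at most 10 kb away. They made up 15.1% of the 12818 autosomal Hec1A peaks (95% Wilson interval 14.5% to 15.7%). That share is a product of the selection and not a result. Their nearest Ishikawa peaks, called neighbours here, were 1873 distinct peaks, or 3.54% of the 52874 autosomal Ishikawa peaks (3.39% to 3.70%).

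The study sequenced chromatin immunoprecipitated from cross-linked cells with the rabbit FOXA1 antibody ab23738 (ChIP-seq). For Ishikawa, peaks come from 6 ChIP libraries pooled and 2 pooled inputs, and for Hec1A from 3 ChIP libraries pooled. Input is chromatin that was sequenced without immunoprecipitation, and 2 Hec1A inputs are labelled. The labels name no treatment, dose or time, and both groups are single established lines, so a difference between the lists is one between these 2 lines and their calls. The pools held 343739762 Ishikawa tags and 143055568 Hec1A tags, a tag being a mapped fragment end. With 1 list per line there is no replicate error and no test, so values are given as counts, medians and Wilson intervals, which treat peaks as independent and cover counting error alone. Coordinates are those of hg19.

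FOXA1 is a forkhead transcription factor that can bind DNA in closed chromatin and open it for other factors, among them the oestrogen, progesterone and androgen receptors. It binds mostly at enhancers away from gene starts, and an enhancer region can hold several separate FOXA1 sites. Ishikawa cells are widely used as a hormone-responsive model of endometrial adenocarcinoma, and Hec1A cells come from another endometrial adenocarcinoma. Whether the lines occupy the same base pairs or only the same stretch of chromatin is the question that neighbouring sites touch on.

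Most peaks of the Hec1A list either coincided with Ishikawa binding or lay well away from it. On the autosomes 6791 Hec1A peaks overlapped an Ishikawa peak, 322 had no overlap but a centre within 1 kb, and 3770 lay farther than 10 kb. The neighbouring sites were 32.1% of the 6027 Hec1A peaks without overlap (30.9% to 33.3%). In 956 cases the neighbour lay at the lower coordinate and in 979 at the higher, a share of 49.4% at the lower (47.2% to 51.6%).

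Distances filled the whole range that the selection allowed. The median distance was 5225 bp, with quartiles of 2885 bp and 7356 bp. The number of sites fell with distance, from 277 between 1 and 2 kb to 180 between 9 and 10 kb, with a dip to 189 between 4 and 5 kb. The decline went on past the upper limit, with 141 Hec1A peaks between 10 and 11 kb and 83 between 19 and 20 kb. The limits therefore cut a continuous distribution and do not mark a separate class of sites.

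**Figure D1:**
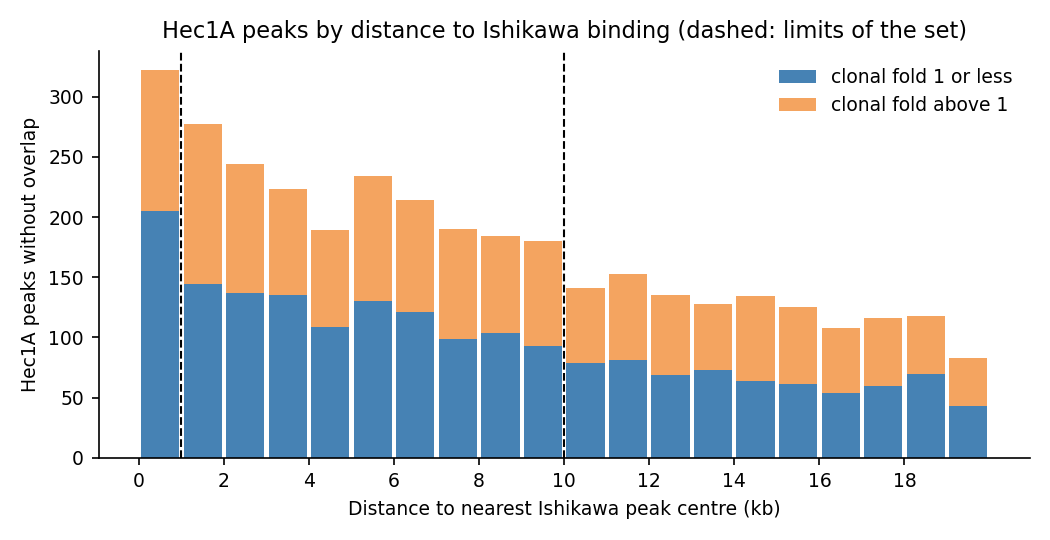
Hec1A autosomal peaks without overlap, counted in 1 kb steps (y axis, number of peaks) by distance to the nearest Ishikawa peak centre (x axis, kb), with bars split by clonal fold and dashed lines at the limits of the set. Counts fall from 277 between 1 and 2 kb to 180 between 9 and 10 kb and to 83 between 19 and 20 kb.

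The values at the limits are given as a description. Just inside the lower limit, chr2:159946950-159947204 and chr2:70763801-70764055 lay 1005 and 1006 bp from their neighbours, with findPeaks scores of 33 and 70, and local folds of 4.81 and 4.26. The findPeaks score is the tag number by which the caller ranked a peak, and the local fold compares the peak with the surrounding 10000 bp, and these values are the authors' own. Just outside it, chr14:78227392-78227646 and chr2:242769286-242769540 lay 996 and 987 bp away, with scores of 43 and 32 and folds of 4.33 and 4.28. All 4 were modest peaks of their list.

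At the upper limit, chr17:51063835-51064089 and chr2:28806907-28807161 both lay 9998 bp away, with scores of 32 and 57 and folds of 5.89 and 6.28. Just beyond it, chr5:73529393-73529647 and chr2:196478630-196478884 lay 10007 and 10013 bp away, with scores of 95 and 70 and folds of 7.03 and 7.17. The pair beyond the limit was the stronger here.

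The neighbouring sites were weaker than the sites both lines share and close in strength to Hec1A peaks in open distance from Ishikawa binding. Their median score was 44 (quartiles 36 and 71), against 74 for overlapping Hec1A peaks, 42 for peaks farther than 10 kb and 58 over all autosomal Hec1A peaks. The median local fold was 5.19, against 6.40, 5.23 and 5.71. Of the neighbouring sites 284, or 14.7% (13.2% to 16.3%), were among the 25% of highest score in the Hec1A list, where 25.2% of all autosomal Hec1A peaks stood. Another 754, or 39.0% (36.8% to 41.2%), were among the 25% of lowest score, against 24.6%.

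Sites of high local fold and sites of high focus ratio were present among them, but were a minority. A local fold of at least 8 was reached by 307 sites, or 15.9% (14.3% to 17.6%), where 26.0% of all autosomal Hec1A peaks reached it. The share was 34.7% among overlapping peaks and 16.3% among peaks farther than 10 kb. The focus ratio is the fraction of a peak's tags that lie on the side of its centre expected for their strand. It was at least 0.9 at 232 sites, or 12.0% (10.6% to 13.5%), against 17.4% of all autosomal Hec1A peaks.

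Signal, the tag count per 10000000 tags, had a median of 4.61 at the neighbouring sites and ranged from 1.96 to 123.1. The median signal corresponds to 66 tags, with a 95% exact Poisson interval of 3.57 to 5.87 for the signal. This interval treats tags as independent and is too narrow where tags repeat the same position. A typical neighbouring site was thus measured with few tags, while its Ishikawa neighbour, with a median signal of 10.6, rested on 364 tags.

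Tags stacked on few positions were frequent. The clonal fold is the expected number of unique tag positions divided by the number found, so values above 1 mark repeated positions. It exceeded 1 at 863 neighbouring sites, or 44.6% (42.4% to 46.8%), where 28.9% of all autosomal Hec1A peaks exceeded it. The share was 13.4% (12.6% to 14.2%) among overlapping peaks, 36.3% (31.3% to 41.7%) among those within 1 kb, and 48.1% (46.6% to 49.7%) among those farther than 10 kb. Along the distance it was 48.0% from 1 to 2 kb, 41.9% from 2 to 5 kb and 45.4% from 5 to 10 kb, with overlapping intervals.

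The sites of high clonality had more tags but lower scores. Their median signal was 4.96 and their median score 37, and 33 of 863 (3.82%) were among the highest 25% of the list. The caller considered at most 7 tags per bp in Hec1A, and the part of this limit in the lower scores was not tested. The 1072 sites of low clonality, meaning a clonal fold up to 1, had a median signal of 4.12 and a median score of 60, and 251 of them (23.4%, 21.0% to 26.0%) were among the highest 25%. Overlapping peaks of the same low clonality had a median score of 78 and 38.4% in the highest 25%, and peaks farther than 10 kb had 54 and 18.7%. As among all peaks, the median score of neighbouring sites of low clonality thus lay between those of overlapping and distant peaks. Their median local fold, 5.05, stayed near the 5.01 of distant peaks and below the 6.17 of overlapping ones.

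**Figure D2:**
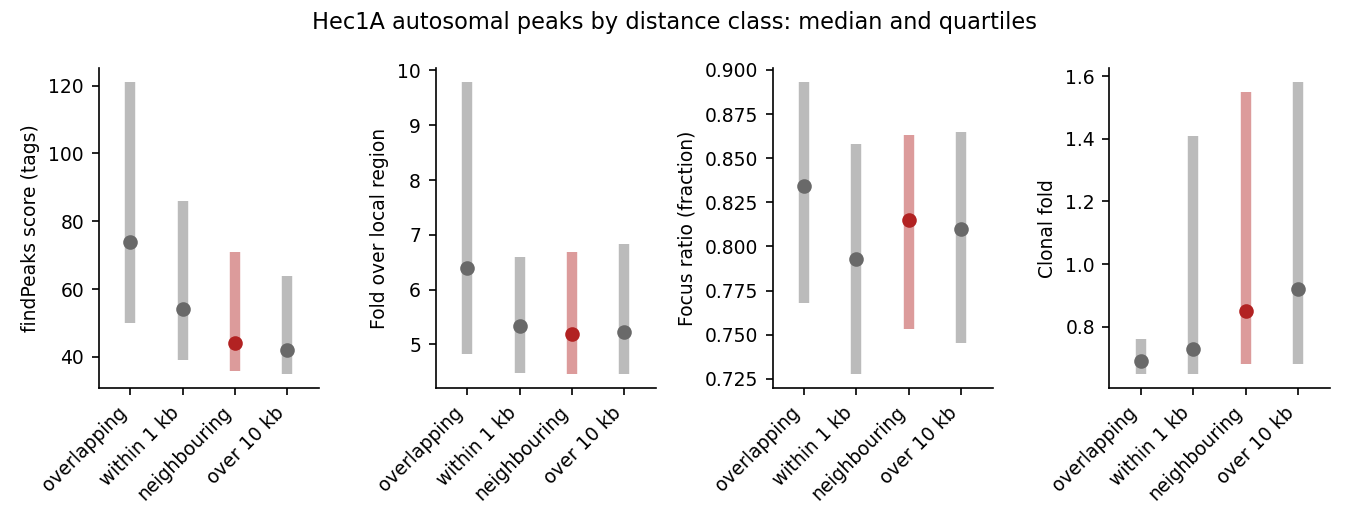
Hec1A autosomal peaks by distance class, with the median (point) and quartiles (bar) of the findPeaks score in tags, the local fold, the focus ratio and the clonal fold; axes do not start at 0. The neighbouring sites, in red, have a median score of 44, against 74 at overlapping peaks and 42 at peaks over 10 kb away.

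Closeness to the neighbour went with a somewhat higher score. The 933 sites up to 5 kb from their neighbour had a median score of 48 (95% binomial interval of the median 46 to 51), and the 1002 sites beyond 5 kb had 42 (41 to 43). Their median local folds were 5.15 and 5.23. The local background of a peak, which is its signal divided by that fold, was 0.887 tags per 10000000 within 5 kb and 0.769 beyond. A higher score near the neighbour thus came with a higher local background, and its part in the score was not tested. Sites within 5 kb also lie inside the 10000 bp region by which their neighbour was judged. The caller required a local fold of 4 in each line from that line's own tags. Hec1A tags therefore had no part in the fold of the neighbour.

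The Ishikawa neighbours had values close to those of their whole list. Their median score was 349 and that of all autosomal Ishikawa peaks 320. Among neighbours 515, or 27.5% (25.5% to 29.6%), were in the highest 25% of the Ishikawa list, where 25.6% of all autosomal Ishikawa peaks stood. Fold over input compares a peak with the pooled Ishikawa inputs, had a median of 7.77 in both sets, and was at least 8 for 910 neighbours, or 48.6% (46.3% to 50.8%), against 48.3% of all. Median input tags were 5 per peak in both.

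Most neighbours were listed in Ishikawa alone, but 333 of them, or 17.8% (16.1% to 19.6%), overlapped another Hec1A peak, where 12.8% of all autosomal Ishikawa peaks did. This share depends on the length of the Ishikawa list. With only its highest-scoring peaks kept, as many as Hec1A has, it was 39.0%, where 29.8% of all kept autosomal Ishikawa peaks overlapped a Hec1A peak. At these places Hec1A had the site of both lines and, at more than 1 kb from it, an additional one. Such neighbours were strong, with a median score of 658 against 310 for the 1540 others, and a median local fold of 12.5 against 6.54. All Ishikawa peaks that overlap a Hec1A peak had a median score of 658 as well.

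The Hec1A sites beside these neighbours had higher scores and fewer repeated tag positions than the other neighbouring sites, with intervals that did not overlap. Counted over sites, 347 lay next to a neighbour that overlaps another Hec1A peak and 1588 next to one listed in Ishikawa alone. Their median scores were 52 (47 to 57) and 43 (42 to 45), and 36.0% (31.2% to 41.2%) and 46.5% (44.0% to 48.9%) had a clonal fold above 1. Their median local folds were 5.10 and 5.21, with overlapping intervals. The local background was 0.884 and 0.818.

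The strength of a neighbouring site followed that of its neighbour only loosely. Ranks by score were expressed as percent of the own list, with 0 for the strongest, since the lists differ in depth and peak width. Across the 1935 pairs, Spearman's rho between the scores was 0.138, and across the 6791 overlapping pairs it was 0.531. These are descriptions across sites, and all sites of a line come from the same pooled libraries. Of sites with a neighbour in the highest 25%, 98 of 530 (18.5%, 15.4% to 22.0%) were themselves in the highest 25%, and with a neighbour in the lowest 25% it was 48 of 411 (11.7%, 8.92% to 15.1%).

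The Hec1A site held the better rank in 671 pairs, or 34.7% (32.6% to 36.8%), and in 497 of the 1072 pairs of low clonality, or 46.4% (43.4% to 49.4%). A weak Hec1A site next to a strong Ishikawa peak, from the lowest and the highest 25% of their lists, was found in 169 pairs. That is 31.9% (28.1% to 36.0%) of the 530 pairs with such a neighbour, where 39.0% of all neighbouring sites were in the lowest 25%. The opposite arrangement was found in 48 of 411 pairs, or 11.7% (8.92% to 15.1%), where 14.7% of all neighbouring sites were in the highest 25%. The first arrangement was thus somewhat less frequent than the overall share of weak sites. For the opposite one, the interval included the overall share of strong sites.

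**Figure D3:**
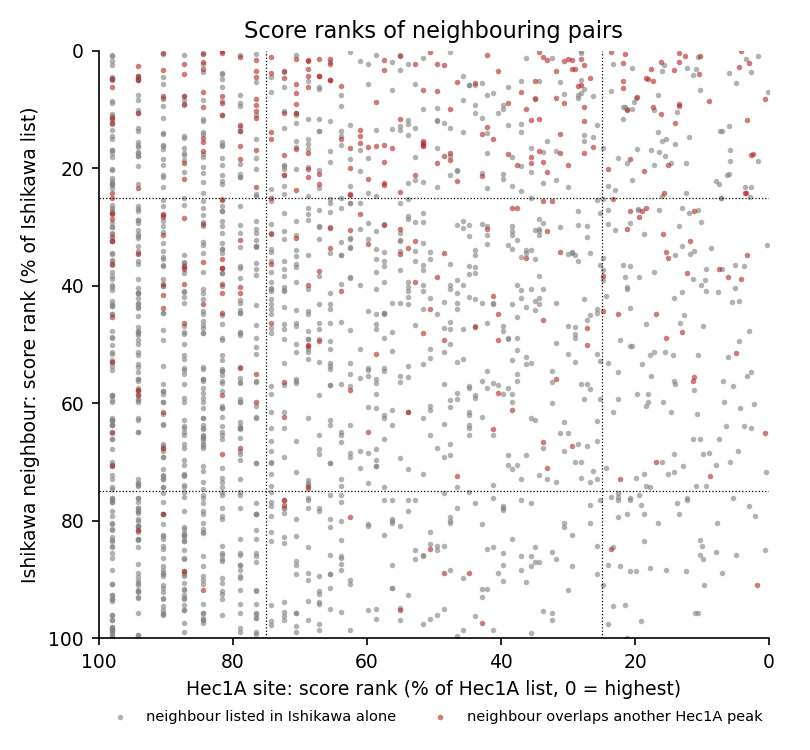
Score rank of each neighbouring Hec1A site (x axis, percent of the Hec1A list) against that of its Ishikawa neighbour (y axis, percent of the Ishikawa list), with 0 for the highest score and dotted lines at 25% and 75%; columns of points at the left are tied low scores. Pairs fill the whole square, with 98 in the upper right corner where both are in the highest 25%.

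In 6 pairs both members ranked highest by the worse of their ranks. The first was chr3:177003929-177004183, with a score of 500, a local fold of 27.6 and a focus ratio of 0.970. Its neighbour chr3:176999794-177000146, 4.09 kb below, had a score of 4680, a fold over input of 81.0 and no Hec1A partner. This site stood among 4 Ishikawa peaks within 10 kb, of which 2 overlapped Hec1A peaks, at 6.86 kb below and 9.09 kb above. Both lines thus bound this stretch repeatedly, at common and at separate positions.

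On chromosome 16 the site chr16:66546998-66547252 had a score of 348 and lay 3.81 kb from chr16:66550762-66551114, which had an Ishikawa score of 3140. That neighbour was bound in both lines, with a Hec1A score of 500, so the additional Hec1A site was the weaker of the 2 there. On chromosome 18 the site chr18:24060889-24061143, with a score of 327, was the sole Hec1A peak within 15 kb. Ishikawa had 5 peaks there, and the nearest, chr18:24059635-24059987 at 1.21 kb, had a score of 3863.

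On chromosome 6 the site chr6:140299062-140299316, with a score of 378, lay between 2 Ishikawa peaks at almost equal distance. The peak at 3.86 kb above, chr6:140302869-140303221, was listed in Ishikawa alone with a score of 2182. The peak at 3.90 kb below had a score of 1243 and overlapped a Hec1A peak of score 107. In Hec1A the highest score of this stretch was therefore at a position without a listed Ishikawa peak.

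The remaining pairs had a site of both lines as neighbour. On chromosome 17 the site chr17:74641077-74641331 had a score of 290 but a local fold of only 5.62, with a local background of 4.31, the highest of all neighbouring sites. Its neighbour chr17:74637629-74637981 had an Ishikawa score of 10120 and a fold over input of 263, and the overlapping Hec1A peak a score of 1055. On chromosome 2 the site chr2:158987496-158987750 had a score of 279, above the 186 of the Hec1A peak at the neighbour chr2:158988474-158988826, whose Ishikawa score was 2610. The distance was 1.03 kb, so in Hec1A the stronger of both adjacent peaks was the one without an Ishikawa partner.

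**Figure D4:**
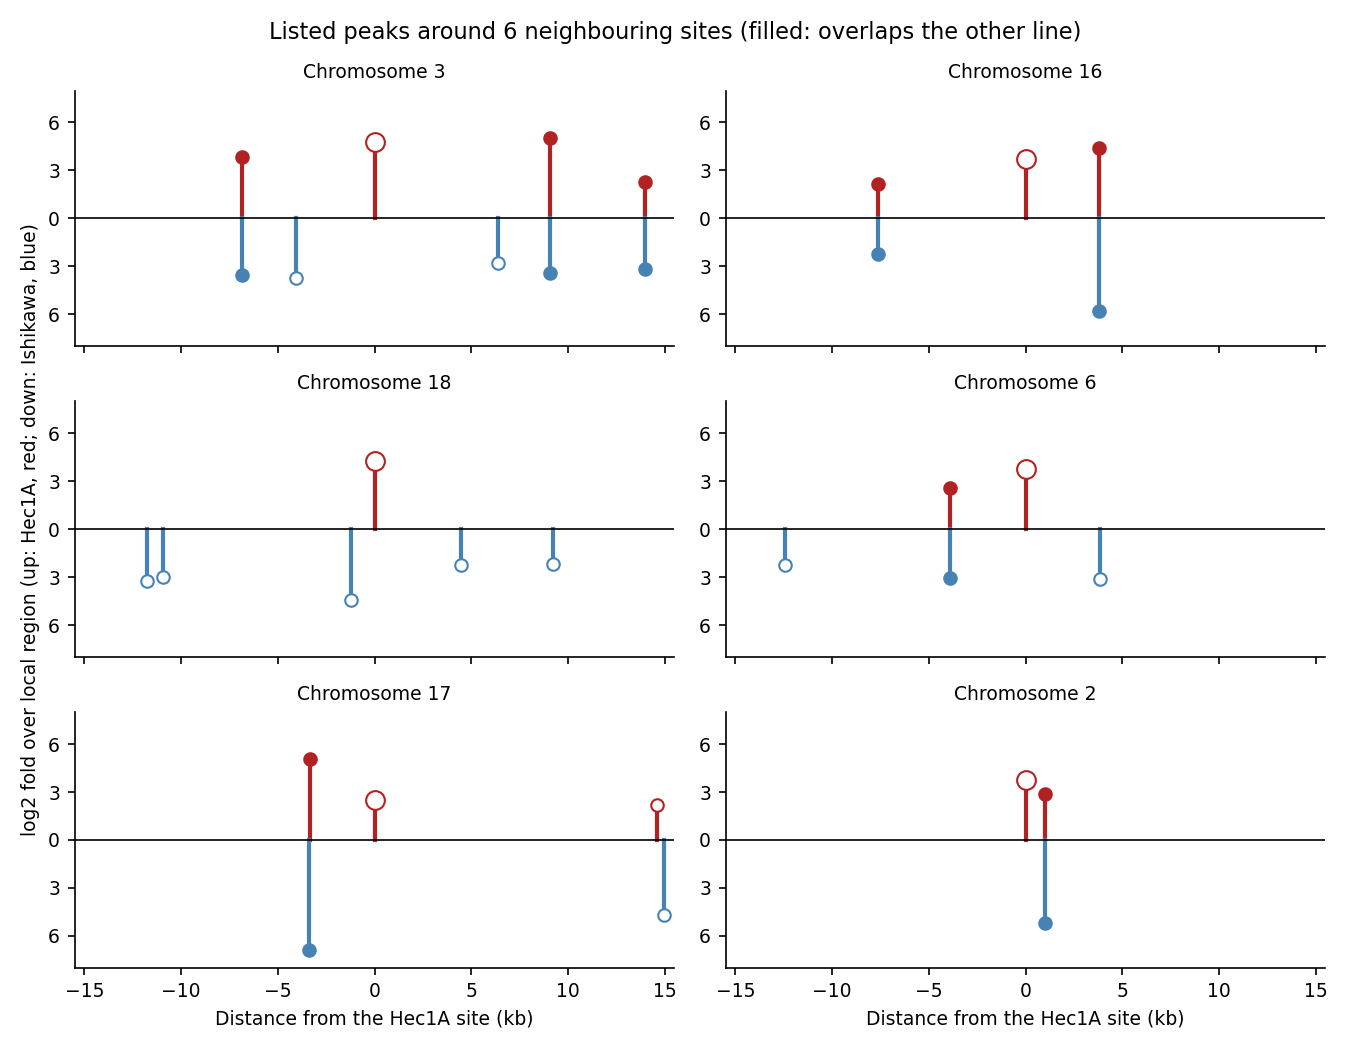
Listed peaks within 15 kb of the 6 neighbouring sites of best common rank, by distance from the site (x axis, kb), with log2 local fold drawn upward for Hec1A (red) and downward for Ishikawa (blue); filled points overlap a peak of the other line and the large open point is the site. The chromosome 18 site stands alone in Hec1A among 5 Ishikawa peaks, and the chromosome 2 site lies 1.03 kb from a site of both lines.

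The 6 neighbouring sites of highest score of low clonality all ranked higher in their list than their neighbours did in theirs. With ranks from 0.174% to 0.683% of the Hec1A list, the choice by score made this order nearly certain. The site chr5:124613273-124613527 had a score of 1383, a signal of 123.1 and a focus ratio of 0.962. Its neighbour chr5:124611037-124611389, at 2.19 kb, had a focus ratio of 0.648, a fold over input of 18.9 and a rank at 7.02% of the Ishikawa list. The Hec1A peak of high focus ratio thus stood beside an Ishikawa peak of lower focus ratio.

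The next was chr3:195442918-195443172, with a score of 1205 and a local background of 3.96, 4.22 kb from an Ishikawa peak of score 440. The site chr11:122513141-122513395 had a score of 927 and a local fold of 69.6, the largest among neighbouring sites. Its neighbour, 4.28 kb away, had a rank at 71.8% of the Ishikawa list and a fold over input of 5.09. Here a strong and isolated Hec1A site had a weak Ishikawa peak nearby.

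The site chr1:156186300-156186554 had a score of 907 but a focus ratio of 0.641, and lay 8.91 kb from an Ishikawa peak of score 1247 that also overlapped a Hec1A peak. The site chr7:55063739-55063993 had a score of 888 and a focus ratio of 0.975, 7.16 kb from an Ishikawa peak ranked at 85.1% of its list. The site chr17:5740419-5740673 had a score of 810 and a focus ratio of 0.978, 4.20 kb from a peak ranked at 65.2%. That Ishikawa peak also overlapped a Hec1A peak. Except on chromosome 1, these sites had focus ratios of at least 0.92.

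The largest rank difference in favour of Hec1A, among sites of low clonality, was at chr16:69026446-69026700. It had a score of 489 and a local fold of 48.3, and its neighbour at 7.78 kb ranked at 91.1% of the Ishikawa list. That neighbour overlapped another Hec1A peak. Next came chr1:37945324-37945578, with a score of 160 and a neighbour at 95.8%, and the chromosome 7 site described above. These neighbours had local folds of 5.43, 4.02 and 4.85, close to the required 4.

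The opposite extreme was at chr5:57137782-57138036, chr15:90340518-90340772 and chr5:64459605-64459859, each with a score of 33, where the caller required 32 tags. Their neighbours had scores of 1844, 1843 and 1331 and folds over input of 44.3, 26.0 and 16.7, and none overlapped a Hec1A peak. At these places Hec1A had a site at the limit of detection next to a strong Ishikawa site that Hec1A lacked in its list.

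By the selection each neighbouring site has at least 1 Ishikawa centre within 10 kb, and most had no more. One Ishikawa centre within 10 kb was found for 1541 sites, 2 for 344, 3 for 45 and 4 for 5. In all, 394 sites, or 20.4% (18.6% to 22.2%), had at least 2, where 35.2% (34.1% to 36.4%) of overlapping Hec1A peaks did. The selection lowers the first share, because no Ishikawa centre can lie closer to a site than its neighbour. The nearest Ishikawa centre was at a median of 5225 bp from neighbouring sites and 14 bp from overlapping peaks. These shares therefore cannot tell whether Ishikawa peaks were sparser around neighbouring sites. An Ishikawa centre lay on both sides within 10 kb at 267 sites, or 13.8% (12.3% to 15.4%). Another Hec1A centre lay within 10 kb of 534 sites, or 27.6% (25.7% to 29.6%), where 15.8% of all autosomal Hec1A peaks had one. Among Hec1A peaks without overlap but within 1 kb of an Ishikawa centre it was 30.1% (25.4% to 35.3%). The share was 15.1% among overlapping peaks and 9.66% among peaks farther than 10 kb. For 412 sites, or 21.3% (19.5% to 23.2%), such a centre belonged to a Hec1A peak that overlaps an Ishikawa peak, against 24.5% (20.2% to 29.5%) of the Hec1A peaks within 1 kb of an Ishikawa centre. The selection favours this arrangement, since it asks for an Ishikawa centre nearby.

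The 5 sites with 4 Ishikawa centres within 10 kb tied for the most. Besides the chromosome 3 site above they were chr1:235093182-235093436, chr17:37851951-37852205, chr2:70345829-70346083 and chr2:70363053-70363307. Their scores were 119, 121, 38 and 51, and all had a clonal fold below 1. The sites on chromosomes 1 and 17 reached the highest 25% of the Hec1A list, and those on chromosome 2 did not.

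Of the neighbours, 1814 had 1 neighbouring site, 56 had 2 and 3 had 3. The Ishikawa peak chr6:30731912-30732264, with a score of 3600, a fold over input of 215 and a Hec1A partner, had neighbouring sites at 5.02, 6.06 and 6.70 kb, with scores of 79, 85 and 51. The peak chr3:101899589-101899941, with a score of 556 and a Hec1A partner, had sites at 1.22, 1.61 and 6.35 kb, with scores of 327, 128 and 315. Local backgrounds at the nearer sites there were 3.67 and 3.51. The peak chr1:145283032-145283384, with a score of 108, had sites at 6.16, 6.80 and 9.37 kb with scores of 41, 36 and 36. On chromosome 3 the sites were strong for Hec1A, with ranks from 3.43% to 15.6% of its list, and those on chromosomes 1 and 6 were outside its highest 25%.

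Chromosomes contributed unequally. Chromosome 3 held 200 neighbouring sites, chromosome 2 held 181, chromosome 1 held 165 and chromosome 17 held 150. As a share of the Hec1A peaks of the chromosome, neighbouring sites ranged from 9.87% on chromosome 14 (37 of 375, 7.24% to 13.3%) to 21.0% on chromosome 17 (150 of 714, 18.2% to 24.1%). On chromosome 17 they were 41.1% of the Hec1A peaks without overlap.

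Chromosomes 3, 5 and 17 stood apart in clonality and local background, in the whole Hec1A list as in the neighbouring sites. They held 477 sites, or 24.7% of the neighbouring sites, and 20.1% of autosomal Hec1A peaks. The median local background of neighbouring sites was 0.975 there and 0.774 on the other autosomes, and 64.4% and 38.1% had a clonal fold above 1. Over all Hec1A peaks of the same chromosomes the median background was 1.01 and 0.769, and 44.1% and 25.1% had a clonal fold above 1. Among neighbouring sites, the share with a clonal fold above 1 was 72.5% on chromosome 3 and 13.8% on chromosome 22. Among sites of low clonality, chromosome 17 held 63 (5.88%, against 4.88% of all such Hec1A peaks) and chromosome 3 held 55 (5.13%, against 6.17%). Chromosome 3 thus had an excess relative to all Hec1A peaks among all neighbouring sites (10.3% against 8.87%), but not among those of low clonality. The part of clonality and of local background in this excess was not tested. Relative to Hec1A peaks without overlap chromosome 3 had no excess, with 29.1% neighbouring sites against 32.1% over all autosomes.

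**Figure D5:**
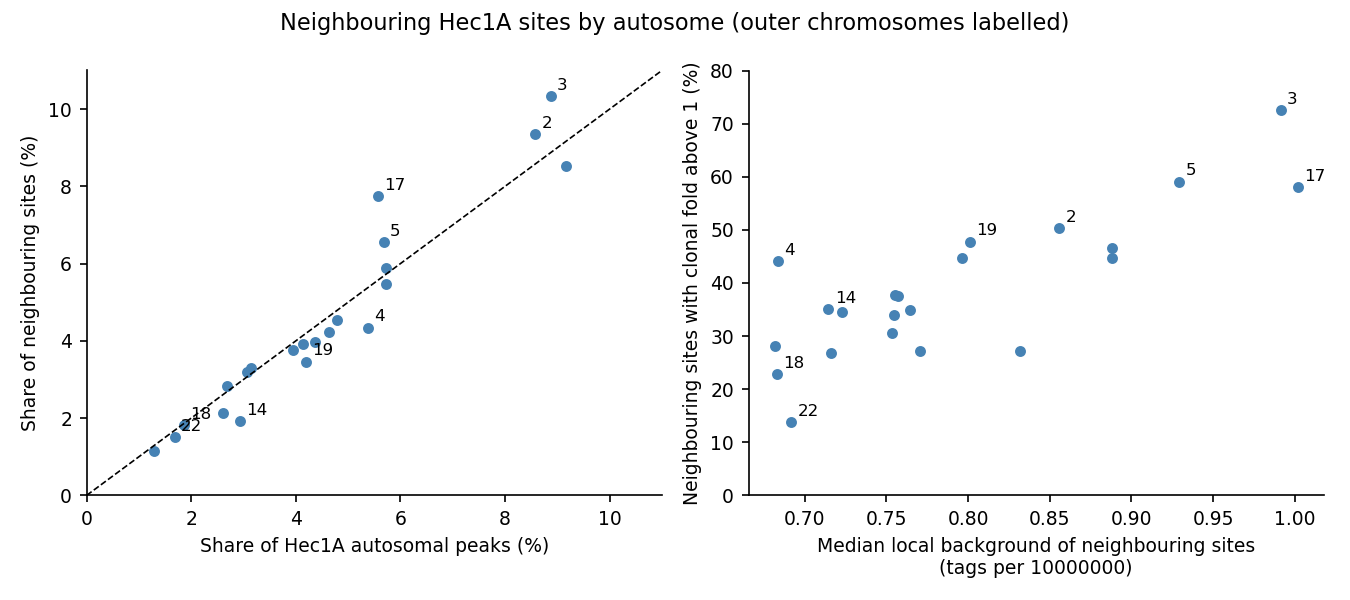
Left, share of the neighbouring sites on each autosome (y axis, %) against its share of autosomal Hec1A peaks (x axis, %), with equal shares dashed; right, the percentage of neighbouring sites with a clonal fold above 1 (y axis) against their median local background (x axis, tags per 10000000). Chromosomes 3, 5 and 17 have the highest backgrounds of the 22 autosomes, at 0.991, 0.929 and 1.00, and the highest shares of clonal fold above 1, at 72.5%, 59.1% and 58.0%.

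Some limits apply to all of these values. A neighbouring site has no listed Ishikawa peak, but Ishikawa tags at its position are not analysed here, so binding below the caller's thresholds cannot be told apart from no binding. The same holds for Hec1A at neighbours listed in Ishikawa alone. The share of tags inside peaks, given by the caller as approximate IP efficiency, was 1.12% in Hec1A and 9.66% in Ishikawa. As too clonal, 25004 putative peaks were removed in Hec1A and 12587 in Ishikawa. The command and filters recorded for Hec1A hold no input, although its output name refers to inputs, and no fold over input is listed for its sites.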

How the data were processed

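FOXA1 ChIP-seq peak lists of Ishikawa (6 ChIP and 2 input libraries) and Hec1A (3 ChIP libraries; 2 inputs labelled) were used. The submitters' processing notes name hg19, HOMER 4.7.2, Bowtie 1.1.2 and SAMtools 1.3.1. Peaks were called by the authors on pooled tags with findPeaks in factor mode, per the file headers. At least 88 tags were needed in Ishikawa and 32 in Hec1A, with a fold of 4 over the local 10000 bp, a clonality limit of 2 and, in Ishikawa alone, a fold of 4 over input. The header widths are 353 bp and 254 bp. Libraries came from 2 preparation kits, mixed within both pools.

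The deposited signal is a tag count per 10000000 tags. Of the other deposited values, focus ratio is a fraction, findPeaks score a number of tags, and the local, input and clonal folds are ratios. The deposited p-values were not used.

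With Python 3.11.15, pandas 2.3.3 and scipy 1.17.1, each Hec1A peak was joined to its nearest Ishikawa centre on the same autosome. Overlap meant at least 1 shared base. Ranks use the whole list. The joining was tested on simulated data. Members and lists were chosen with earlier results of these data known. Named pairs are the 6 with the best worse rank; among sites whose clonal fold is at most 1, the 6 of highest score and the 3 of largest rank difference either way; the 2 nearest each limit; and those most crowded. No test was run, since each line has 1 list. No sequence or annotation of hg19 was used here, so motifs and genes are not reported. Alternatives changed the distance limits, the peaks admitted and the overlap.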

Additional observations from a re-analysis of the deposited data

How the results depend on the processing

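Of 44 alternatives computed, 22 stayed within 1.5 times of a count or within the 95% interval of a median or share. The number of neighbouring sites was 933 with an upper limit of 5 kb, 3176 with 20 kb, 1072 at a Hec1A clonal fold of 1 or less, 307 at a Hec1A local fold of at least 8, and 888 with equal peak numbers in both lists; fewer or more peaks follow from these limits. The median distance was 2801 bp, 8068 bp, 5569 bp at an Ishikawa fold over input of at least 8 and 5758 bp with equal peak numbers, where the first pair belongs to the limits of 5 and 20 kb. The median local fold was 5.05 at a clonal fold of 1 or less, 10.5 at a local fold of at least 8, 5.29 at an input fold of at least 8 and 5.29 with equal peak numbers. The share with a clonal fold above 1 was 42.0% at a local fold of at least 8, 37.9% at an input fold of at least 8, 38.1% without chromosomes 3, 5 and 17, and 36.4% with equal peak numbers. The share of neighbours that overlap another Hec1A peak was 15.6% with a limit of 5 kb, 20.4% at a clonal fold of 1 or less, 15.4% at a local fold of at least 8, 24.9% at an input fold of at least 8 and 39.0% with equal peak numbers. For the medians and shares the cause was not tested. The alternatives with equal peak numbers and without chromosomes 3, 5 and 17 were chosen after seeing the data. Alternatives on motifs, gene starts and left-out libraries were not run here. No paired analysis was possible because each list merges its libraries.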

Other observations

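Seen from the other list, 3913 Ishikawa peaks, or 7.40% of the autosomal list (95% Wilson interval 7.18% to 7.63%), had no overlap and a nearest Hec1A centre more than 1 kb and at most 10 kb away. The neighbouring Hec1A site was in turn the Hec1A peak nearest to its neighbour in 1499 of 1935 pairs, or 77.5% (75.6% to 79.3%).

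Ishikawa peaks beyond the 10 kb that the selection used were counted as well. An Ishikawa centre 10 to 50 kb away was found for 85.0% of neighbouring sites (83.3% to 86.5%) and 85.7% of overlapping Hec1A peaks (84.8% to 86.5%). For Hec1A peaks without overlap but within 1 kb it was 86.6% (82.5% to 89.9%). Among Hec1A peaks farther than 10 kb it was 73.0% (71.6% to 74.4%). This last share only restates the distance that defines those peaks, being the part whose nearest Ishikawa centre is within 50 kb. A Hec1A centre 10 to 50 kb away was found for 48.3% of neighbouring sites (46.1% to 50.5%). It was found for 45.1% of overlapping peaks (43.9% to 46.3%) and 41.0% of peaks farther than 10 kb (39.4% to 42.6%).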
